A study of Homo sapiens with 6 samples.

Results

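Chromatin-modifying and chromatin-remodelling genes were examined in MDA-MB-231, an established line of human triple-negative breast cancer cells, with and without shikonin, a naphthoquinone from plant roots. The genes were taken by symbol: those starting with KMT, KDM, SETD, ARID, CHD, BRD, HDAC or KAT and a digit, or with SMARC, together with EP300 and CREBBP. Of the 7150 genes in the authors' deposited table, 59 that met this rule are described. GENCODE 29 annotates 97 protein-coding genes that the rule would take, so 60.8% of them were listed. Of about 14255 genes tested 50.2% were listed, a share near this one. The bases differ, as annotated genes include any that were not tested.

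Total RNA was sequenced from 3 control libraries and 3 shikonin libraries. All 6 came from the same line, labelled WT, and the control samples carry the treatment label none. Shikonin cells had 0.5 µM for 24 h, a dose read as micromolar although its unit is written with a lower-case m. The sources used here name no vehicle. The deposited table holds 0 columns of per-sample values, so neither the values of single libraries nor their depth can be shown. It gives, for each gene past an adjusted p of 0.05 and a 1.5-fold change by the authors' DESeq2 test, the log2 fold change with a standard error and the mean normalized count over all libraries. The authors' mark "up" goes with positive values, which are taken here to mean more RNA after shikonin. Whether the libraries of 1 group are separate cultures is not said, so the p-values cover the spread among these libraries alone, and that spread may be technical.

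DNA in the nucleus is wrapped around histone proteins, and the enzymes described here change how tightly and with which chemical marks. Writers add methyl or acetyl groups to histone lysines, erasers remove them, readers such as bromodomain proteins bind acetylated lysines, and remodellers use ATP to slide or evict nucleosomes. Many work as very large proteins in complexes of many subunits, and several, such as ARID1A and KMT2C, are recurrently mutated in cancers, breast cancer among them.

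Most listed chromatin genes were lower in shikonin. Of the 59, the authors' deposited table had 52 lower and 7 higher, where 24.7% of about 14255 genes tested were listed as lower, 25.5% as higher and 50.2% in either direction. The median log2 fold change of the 59 genes was -1.22 in the authors' deposited table, against 0.60 over all listed genes. That 0.60 lies at the edge of the gap left by the 1.5-fold threshold, as listed genes divide almost evenly by direction. The quartiles were -1.68 and -0.78 for the 59 genes, and -1.10 and 1.23 for all listed genes. As shares of listed genes, 88.1% of the 59 were lower, against 49.2% of all 7150. At least 2-fold lower were 35 of them (59.3%), against 29.2% of all listed genes and 14.6% of all genes tested. The 59 are listed genes by definition, so only the shares of listed genes have a like base. How many genes of the rule were tested is not known. At least 2-fold higher were 4, against 2341 of the 7150 listed genes and 16.4% of all genes tested. From the authors' standard errors, the 95% interval of the fold lay wholly beyond 2-fold for 27 lower genes and for 1 higher gene, ARID5B. In bulk RNA, fewer cells with a transcript and less of it in each cell cannot be told apart. Setting the implied totals of listed genes equal in both groups shifts every log2 fold change down by 0.39. A downward shift can only move lower genes further down, so that all 52 stayed past 1.5-fold was fixed in advance. Among the higher genes, BRD2, KDM6B and SETD4 no longer passed 1.5-fold.

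**Figure D1:**
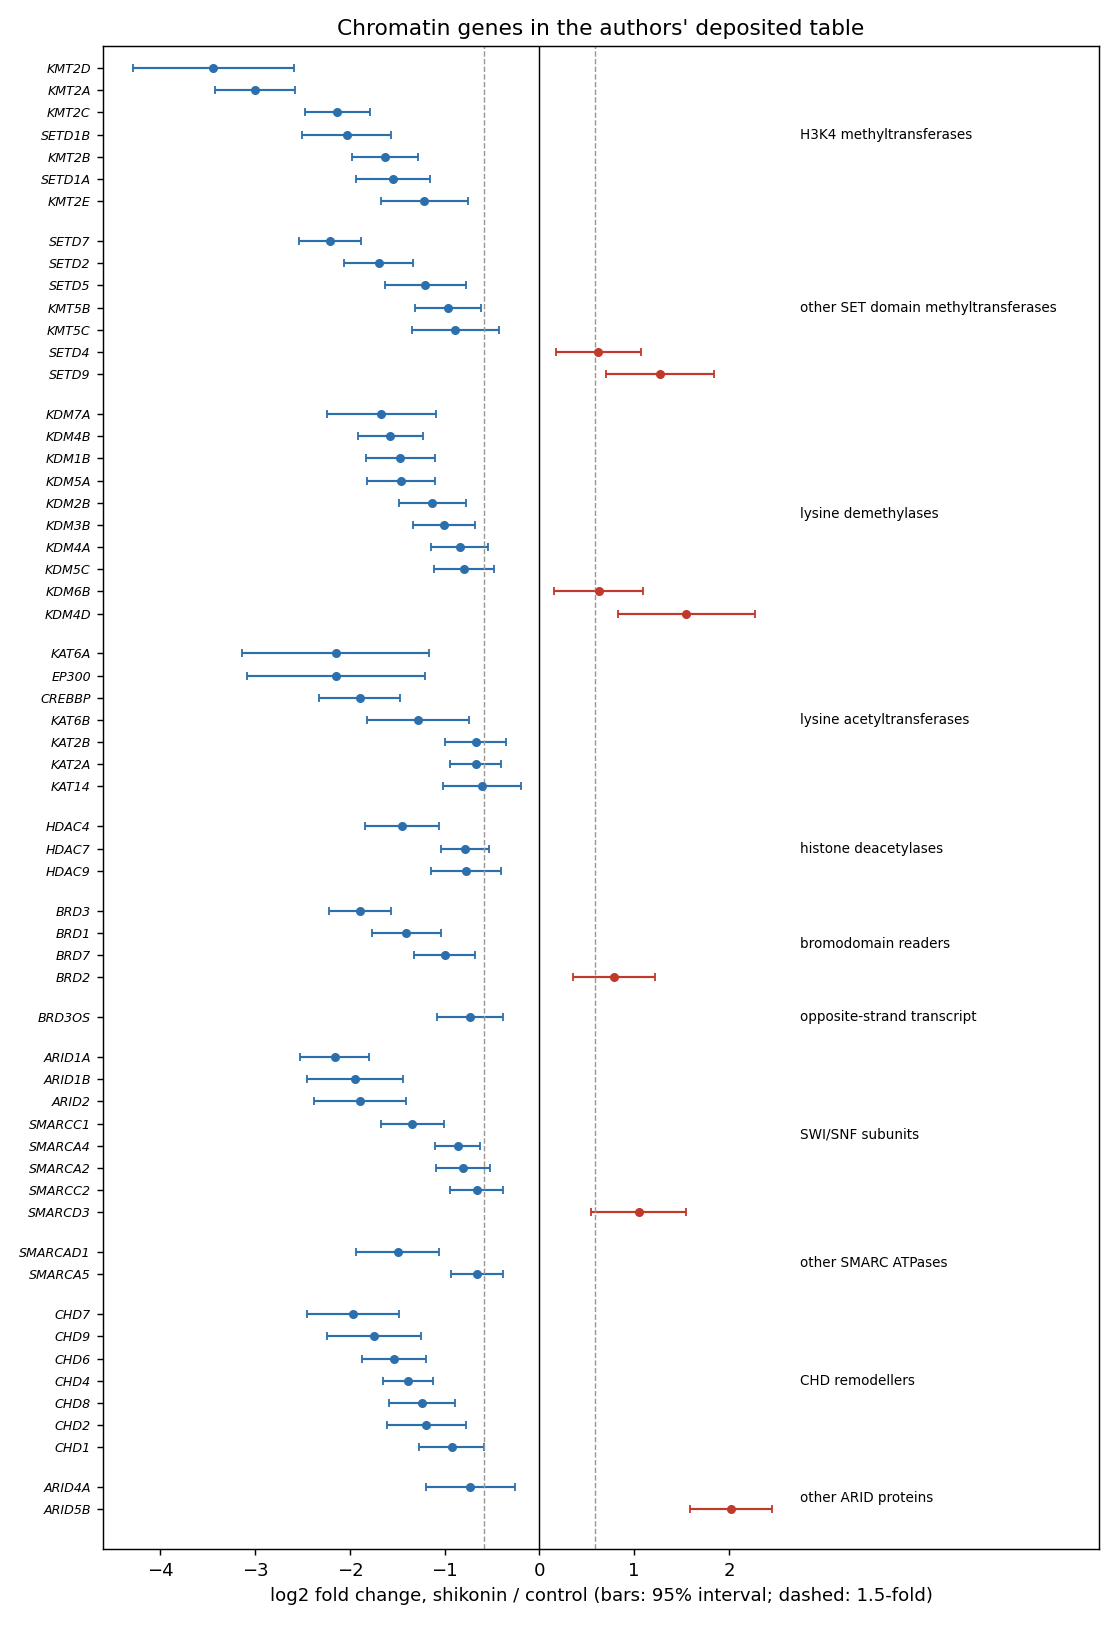
Log2 fold change (shikonin over control, x axis) of 58 of the 59 listed chromatin genes, grouped by role; points are the authors' deposited values, bars are 95% intervals from the deposited standard errors, and dashed lines mark 1.5-fold. The lower genes (blue) lie left of 0, with KMT2D at -3.44, and the 7 higher genes (red) lie right of it, with ARID5B at 2.02.

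Upstream sequences are shown for the MLL-family methyltransferases that were lowest, for CREBBP, and for KDM6B as a gene that was higher, because these genes carry the contrast described next. Each line gives 200 bases, 5′ to 3′ on the gene's strand, ending 50 bases before the start annotated by RefSeq (GRCh38.p14). Capitals mark matches on either strand to the GC box (GGGCGG), the E-box (CACGTG) and the antioxidant response element (TGACNNNGC). They are, in order, chr12:49060845-49061044 on the minus strand, chr11:118436242-118436441 on the plus strand, chr7:152436054-152436253 and chr16:3880764-3880963 on the minus strand, and chr17:7833967-7834166 on the plus strand.
KMT2D: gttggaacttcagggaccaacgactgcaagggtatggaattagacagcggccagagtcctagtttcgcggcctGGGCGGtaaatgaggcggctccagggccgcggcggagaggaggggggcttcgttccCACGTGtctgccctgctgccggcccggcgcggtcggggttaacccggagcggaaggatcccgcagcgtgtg
KMT2A: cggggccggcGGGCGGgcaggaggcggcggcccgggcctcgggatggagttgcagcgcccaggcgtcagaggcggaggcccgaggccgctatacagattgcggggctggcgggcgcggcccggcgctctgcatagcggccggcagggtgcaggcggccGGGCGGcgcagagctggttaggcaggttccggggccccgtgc
KMT2C: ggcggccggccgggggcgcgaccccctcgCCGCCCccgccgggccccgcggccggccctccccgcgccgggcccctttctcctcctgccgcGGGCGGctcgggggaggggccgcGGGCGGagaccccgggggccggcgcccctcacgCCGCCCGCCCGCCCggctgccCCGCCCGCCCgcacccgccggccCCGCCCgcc
CREBBP: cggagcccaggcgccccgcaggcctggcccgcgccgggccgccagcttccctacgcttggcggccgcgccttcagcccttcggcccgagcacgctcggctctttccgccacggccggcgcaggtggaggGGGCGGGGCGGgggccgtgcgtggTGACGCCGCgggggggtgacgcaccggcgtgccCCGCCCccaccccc
KDM6B: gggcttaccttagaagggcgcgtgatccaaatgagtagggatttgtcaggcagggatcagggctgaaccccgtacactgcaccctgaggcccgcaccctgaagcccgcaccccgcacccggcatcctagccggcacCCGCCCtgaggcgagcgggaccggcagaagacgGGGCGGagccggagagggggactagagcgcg

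All 5 stretches held a GC box. KMT2C had 9 matches, some of them overlapping, and a base composition of 91.5% G and C, KMT2A 2 matches and 79% G and C. In the stretch of KMT2D an E-box lay downstream of a single GC box, and that of CREBBP held an antioxidant response element among 3 GC boxes. The RefSeq starts of KMT2D and KDM6B lie upstream of the spans that GENCODE 29 gives these genes. Over the full windows from 250 bases before to 50 after the start, found for 51 of the 59 genes, 35 held a GC box (68.6%), against 44.6% of the 27305 windows of that length. The median G and C content was 69.3% in these 51 windows and 58.3% in all. The 27305 windows were not limited to coding or listed genes, and shares over listed genes were not computed. Motifs of stress-linked factors stood in 0 to 3 of the 51 windows each, too few to read a difference from the shares over all windows. The heat shock element (GAANNTTC) stood in 3 windows (5.88%, against 6.87% of all), the antioxidant response element in 3 (5.88%, against 13.6%), and the cAMP response element (TGACGTCA) in 0 (against 1.98%). The E-box stood in 3 windows (5.88%, against 7.43%), an ETS motif (CCGGAAG) in 7 (13.7%, against 10.7%), the CCAAT box (CCAAT) in 13 (25.5%, against 35.7%), the NRF1 core (GCGCATGC) in 1 (against 3.27%) and the TATA box (TATAAA) in 1, that of ARID5B (against 12%). An ATF4 composite element (TGATGNAAT) was found in 1 window, that of ARID5B, against 1.02% of all. Both strands were searched in every case, and a match is a description of letters only. SMARCC1, SETD1B, ARID2, KAT6A, CHD7, CHD6 and SMARCC2 are among the genes with no entry.

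All 7 methyltransferase genes grouped for H3K4, the mark of promoters and enhancers, were lower, and each was lower by at least 2-fold in the authors' deposited table. KMT2D and KMT2C encode the enzymes that place H3K4 monomethylation at enhancers. KMT2D had the lowest value of all 59 genes, at -3.44 ± 0.43 on the log2 scale (fold change ± standard error, adjusted p = 1.94e-14, DESeq2) by the authors' deposited table. As a fold this is 10.9 (95% interval 6.02 to 19.6), and the implied group means, solved from the authors' deposited mean and fold, were 2831 normalized counts without and 261 with shikonin. KMT2D lies on chromosome 12 from 49018975 to 49059774 (GRCh38, GENCODE 29) and has 54 exons. KMT2A, the MLL1 gene that is broken in childhood and adult leukaemias, lies on chromosome 11 (118436464 to 118526832). It was 7.99-fold lower (5.97 to 10.7; adjusted p = 5.63e-42, DESeq2) by the authors' deposited table, from an implied 3185 to 398 normalized counts. KMT2C, on chromosome 7 (152134922 to 152436005, 59 exons), was 4.38-fold lower (3.45 to 5.57) by the authors' deposited table. Duplicated copies of part of KMT2C exist elsewhere in the genome, so its count is uncertain. The smallest difference of the group was that of KMT2E, a reader-like family member whose methyltransferase activity is doubtful, at 2.32-fold lower (1.69 to 3.19) by the authors' deposited table. The other 3, SETD1B, KMT2B and SETD1A, stood between at log2 fold changes of -2.03, -1.63 and -1.55 in the authors' deposited table. SETD1A and SETD1B are the catalytic subunits of the complexes that place most H3K4 trimethylation at promoters. The intervals of KMT2D and KMT2A overlap, and that of KMT2A lies apart from those of the other 5.

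Other SET-domain genes were split. The authors' deposited table had 5 lower and 2 higher, and KMT5A, SETD3 and SETD6 were not listed. SETD7, a monomethyltransferase of histone and many non-histone proteins, had the third lowest value of the 59 at 4.61-fold lower (3.68 to 5.78; adjusted p = 3.30e-38, DESeq2) by the authors' deposited table. It went from an implied 3268 to 708 normalized counts. SETD2, the enzyme of H3K36 trimethylation along transcribed genes, was 3.24-fold lower (2.51 to 4.17) by the authors' deposited table. SETD5 was 2.31-fold lower (1.72 to 3.10) and KMT5C, which trimethylates H4K20, 1.85-fold lower (1.34 to 2.54) by the authors' deposited table. SETD9 and SETD4 were higher, by 2.42-fold (1.63 to 3.59) and 1.54-fold (1.13 to 2.10) by the authors' deposited table. KMT5B, the H4K20 dimethyltransferase, was lower by the authors' deposited table, at -0.97 on the log2 scale. SETD9 and SETD4 rest on low levels, with mean normalized counts of 97.8 and 227, and so does the lower gene KMT5C, with 166.

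Among lysine demethylases 8 were lower and 2 higher in the authors' deposited table, while KDM1A, KDM2A, KDM4C, KDM5B, KDM6A and KDM8 were among those not listed. KDM7A, an eraser of H3K9 and H3K27 methylation, was 3.18-fold lower (2.13 to 4.73) by the authors' deposited table, at a low mean normalized count of 178. KDM4B, an eraser of H3K9 trimethylation, was 2.97-fold lower (2.35 to 3.76; adjusted p = 1.43e-18, DESeq2) in the same deposited table. KDM1B, a flavin-dependent H3K4 demethylase, was 2.76-fold lower (2.15 to 3.56) by the authors' deposited table, while its relative KDM1A was not listed. The least change on the lower side was that of KDM5C, an H3K4 demethylase, at 1.74-fold (1.39 to 2.17) by the authors' deposited table. Between these stood KDM5A, KDM2B, KDM3B and KDM4A, erasers of H3K4, H3K36 or H3K9 methylation, with log2 fold changes of -1.46, -1.13, -1.01 and -0.84 in the authors' deposited table. KDM6B, the H3K27 demethylase JMJD3 on chromosome 17 (7839904 to 7854796), was 1.54-fold higher (1.11 to 2.14; adjusted p = 0.0169, DESeq2) by the authors' deposited table. KDM4D was 2.93-fold higher (1.77 to 4.84) by the authors' deposited table, from an implied 30.1 to 88.1 normalized counts, and its close copies KDM4E and KDM4F were not listed.

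The acetyltransferase genes with KAT symbols, EP300 and CREBBP were lower wherever listed. There were 7 of them in the authors' deposited table, with KAT5, KAT7 and KAT8 not listed. EP300 and CREBBP encode the paired coactivators p300 and CBP, which acetylate H3K27 at enhancers. EP300, on chromosome 22 (41091786 to 41180079, 31 exons), was 4.43-fold lower (2.31 to 8.51; adjusted p = 2.33e-05, DESeq2) by the authors' deposited table, from an implied 1881 to 425 normalized counts. CREBBP, on chromosome 16 (3725054 to 3880726, 31 exons), was 3.73-fold lower (2.77 to 5.01; adjusted p = 3.65e-17, DESeq2) by the authors' deposited table, from an implied 1971 to 529. The intervals of the pair overlap. KAT6A, a MYST-family H3 acetyltransferase, was 4.43-fold lower (2.24 to 8.79) by the authors' deposited table. KAT6B, its paralog, stood at -1.28 on the log2 scale in the authors' deposited table, and the intervals of both overlap. KAT2A and KAT2B, the GCN5 and PCAF acetyltransferases, were 1.59-fold lower each, and KAT14 was 1.52-fold lower (1.14 to 2.03), the smallest fold among the 59 genes in the authors' deposited table.

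Of 11 annotated HDAC genes 3 were listed in the authors' deposited table, against 50.2% of all genes tested. All 3 encode class IIa enzymes, which shuttle between nucleus and cytoplasm. HDAC5, also of class IIa, was not listed. HDAC4 was 2.73-fold lower (2.08 to 3.58), HDAC7 1.72-fold lower (1.44 to 2.06) and HDAC9 1.71-fold lower (1.32 to 2.20) by the authors' deposited table. The class I genes HDAC1, HDAC2 and HDAC3, which supply the catalytic subunits of nuclear corepressor complexes, and HDAC8 were not listed, so each was either within 1.5-fold, short of the adjusted p, or not tested.

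BRD2 and BRD3, whose BET proteins bind acetylated histones through paired bromodomains, went in opposite directions. BRD3 was 3.72-fold lower (2.96 to 4.67; adjusted p = 6.23e-28, DESeq2) by the authors' deposited table, from an implied 1301 to 350 normalized counts. BRD2, on chromosome 6 (32968660 to 32981505), was 1.73-fold higher (1.28 to 2.34; adjusted p = 8.22e-04, DESeq2) by the authors' deposited table, from an implied 2644 to 4574. The interval of BRD2 lies on the other side of 0 from that of BRD3 on the log2 scale. With equal implied totals the log2 fold change of BRD2 was 0.40, short of 1.5-fold. BRD1, a scaffold of a MYST acetyltransferase complex, was 2.65-fold lower (2.06 to 3.41), and BRD7, a subunit of the PBAF remodeller, 2.00-fold lower (1.60 to 2.49) by the authors' deposited table. BRD8 and BRD9 were not listed. BRD3OS, annotated on the strand opposite BRD3, shares 1281 nt of exon with it and was 1.66-fold lower (1.30 to 2.12) by the authors' deposited table. Without strand in the counting, reads of this pair cannot be told apart.

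SWI/SNF complexes evict or slide nucleosomes, and ARID proteins distinguish the canonical BAF and PBAF assemblies. All 3 ARID subunit genes were lower, with close values. ARID1A, the defining subunit of canonical BAF on chromosome 1 (26693236 to 26782110), was 4.47-fold lower (3.48 to 5.75; adjusted p = 4.58e-30, DESeq2) by the authors' deposited table, from an implied 2556 to 571 normalized counts. ARID1B, its alternative paralog, was 3.85-fold lower (2.71 to 5.48), and ARID2, the PBAF counterpart, 3.72-fold lower (2.65 to 5.21) by the authors' deposited table. The ATPase genes changed less: SMARCA4, the most abundant of the 59 by mean normalized count (5212), was 1.82-fold lower (1.54 to 2.15), and SMARCA2 1.75-fold lower (1.43 to 2.13) by the authors' deposited table. The intervals of both ATPase genes lie apart from those of the 3 ARID genes. SMARCC1 was 2.53-fold lower (2.01 to 3.18) and its paralog SMARCC2 1.58-fold lower (1.30 to 1.92) by the authors' deposited table, and these scaffold genes have intervals that do not overlap. SMARCD3, an accessory subunit best known from heart and muscle, was the 1 higher gene among the 8 listed ARID and SMARC subunit genes, at 2.07-fold (1.46 to 2.93) by the authors' deposited table, from an implied 107 to 221 normalized counts. The small core subunit genes SMARCB1, SMARCD1, SMARCD2 and SMARCE1 were not listed.

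Chromodomain and other ATPase remodellers were all lower where listed. CHD7, mutated in CHARGE syndrome, was 3.91-fold lower (2.79 to 5.47), CHD9 3.35-fold lower (2.38 to 4.72) and CHD6 2.90-fold lower (2.30 to 3.67) by the authors' deposited table. CHD4, the ATPase of the NuRD corepressor, was 2.61-fold lower (2.18 to 3.13; adjusted p = 8.36e-24, DESeq2) by the authors' deposited table, from an implied 4887 to 1869 normalized counts. CHD8 and CHD2, both known as autism or epilepsy genes, had log2 fold changes of -1.24 and -1.19 in the authors' deposited table. CHD1, an elongation-linked remodeller, was the least changed of the 7 at 1.90-fold lower (1.49 to 2.41) by the authors' deposited table. SMARCAD1, a remodeller active in heterochromatin and at DNA breaks, was 2.82-fold lower (2.09 to 3.81), and SMARCA5, the ISWI ATPase, 1.58-fold lower (1.30 to 1.91) by the authors' deposited table. CHD1L, CHD3, CHD5, SMARCA1 and SMARCAL1 were not listed.

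Outside the complexes, ARID5B was the gene with the highest value among the 59. It encodes a DNA-binding coactivator known to work with the demethylase PHF2 in fat and liver cells. ARID5B, on chromosome 10 (61901300 to 62096944), was 4.07-fold higher (3.02 to 5.48; adjusted p = 4.25e-19, DESeq2) by the authors' deposited table, from an implied 258 to 1049 normalized counts. ARID4A, a partner of the retinoblastoma protein, was 1.66-fold lower (1.19 to 2.30) by the authors' deposited table, at a low mean normalized count of 225. A further 5 ARID genes were not listed.

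The listed chromatin genes were long. Their median mature transcript was 6582 nt, against 3293.5 nt over the 6920 listed protein-coding genes, and the 38 annotated genes that were not listed had a median of 3464.5 nt. Coding sequence and exon number differed likewise: the 59 had medians of 4086 nt and 23 exons, all listed coding genes 1360.5 nt and 9 exons. Transcript G and C content was near that of other listed genes (medians of 48.7% and 49.5%). Of the 25 members with a coding sequence above 5000 nt, 24 were lower, KDM6B being the exception. The share over all listed genes with such coding sequences was not computed. By mature length, 92.6% and 95.5% of all listed coding genes were lower in groups 9 and 10 of 10, the longest. Across the 59 genes Spearman's rho of log2 fold change on mature length was -0.69 (n = 59). Genes are not independent replicates, and all share the same 6 libraries. The same measure was -0.70 across all listed coding genes.

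**Figure D2:**
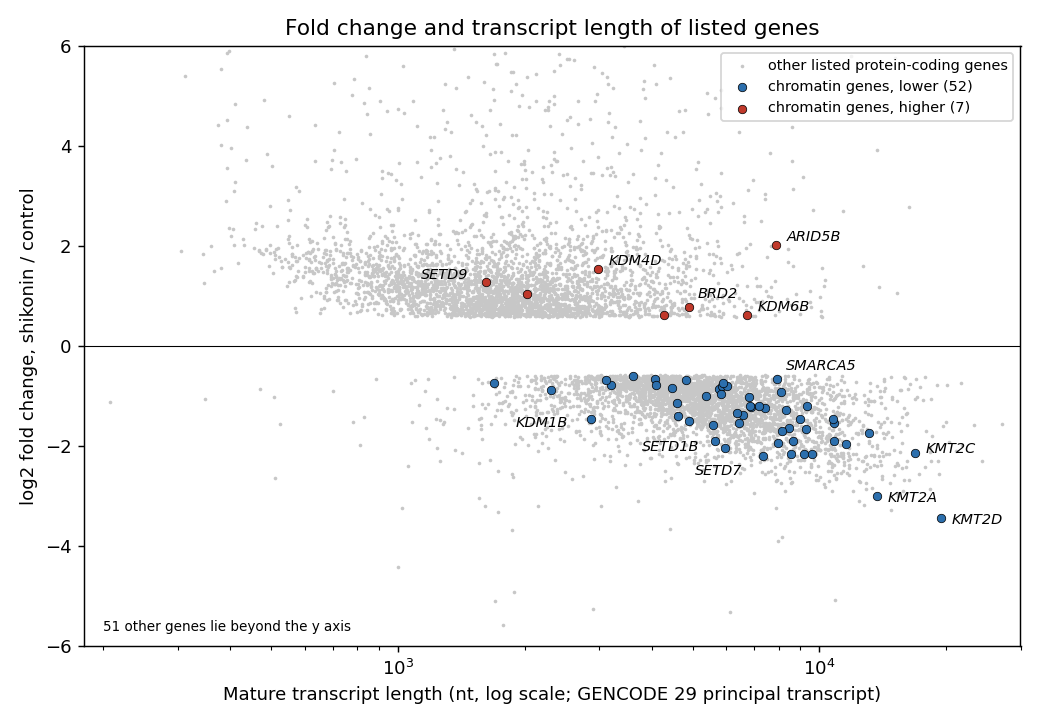
Log2 fold change (y axis) against mature transcript length (x axis, nt, log scale) for listed protein-coding genes (grey), with chromatin genes lower (blue, 52) and higher (red, 7) in shikonin. The blue points follow the downward slope of the grey cloud to KMT2D (19419 nt, -3.44), and ARID5B (7891 nt, 2.02) stands above it.

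Placed among genes of like length, the members stood near the middle as a group. With listed coding genes split into 10 equal groups by mature length, 31 of the 59 had a log2 fold change below the median of their own length group, and the median percentile was 45.8. The group of longest transcripts, from 8008 nt, held 19 members, all lower, as were 95.5% of the 692 listed genes in it. The median log2 fold change of those 19 was -1.74 against -1.55 for the whole group, and 13 of them lay below its median. Within their length groups KMT2D stood at percentile 0.434 and KMT2A at 1.01. That group is wide, from 8008 to 27125 nt with a median of 10016 nt, and these 2 genes have 19419 and 13678 nt. Inside it Spearman's rho of log2 fold change was still -0.20 on mature length and -0.34 on coding length. Its members are therefore only roughly matched for length. Among shorter transcripts, SETD1B (percentile 3.47), SETD7 (4.05), KDM1B (5.35) and BRD3 (5.92) were low for their length. SMARCA5 (88.0), KDM6B (93.4) and ARID5B (98.3) stood at the other end, and 6 of the 7 H3K4 methyltransferases lay below their median. SETD1B and SMARCA5 were singled out here after their values were seen. The part of transcript length in the lower values of these genes was not tested.

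The lowest genes were not equally precise. KAT6A, EP300 and KMT2D had standard errors of 0.50, 0.48 and 0.43 in the authors' deposited table. Listed genes with a mean normalized count within 2-fold of theirs had median standard errors of 0.18, 0.17 and 0.16, which puts the 3 genes at percentiles 99.9, 99.7 and 99.6. CREBBP, at a like level to EP300, had 0.22, itself at percentile 95.8. A standard error at or above percentile 95 was found for 10 of the 59. Besides these 4 genes they were the higher genes BRD2 (99.3) and KDM6B (98.1), and the lower genes SETD1B (97.9), SETD5 (97.3), KMT2A (96.9) and ARID1B (96.8). The table cannot show which library sets these apart, and the folds of KAT6A, EP300 and KMT2D carry the widest intervals among the lower genes.

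**Figure D3:**
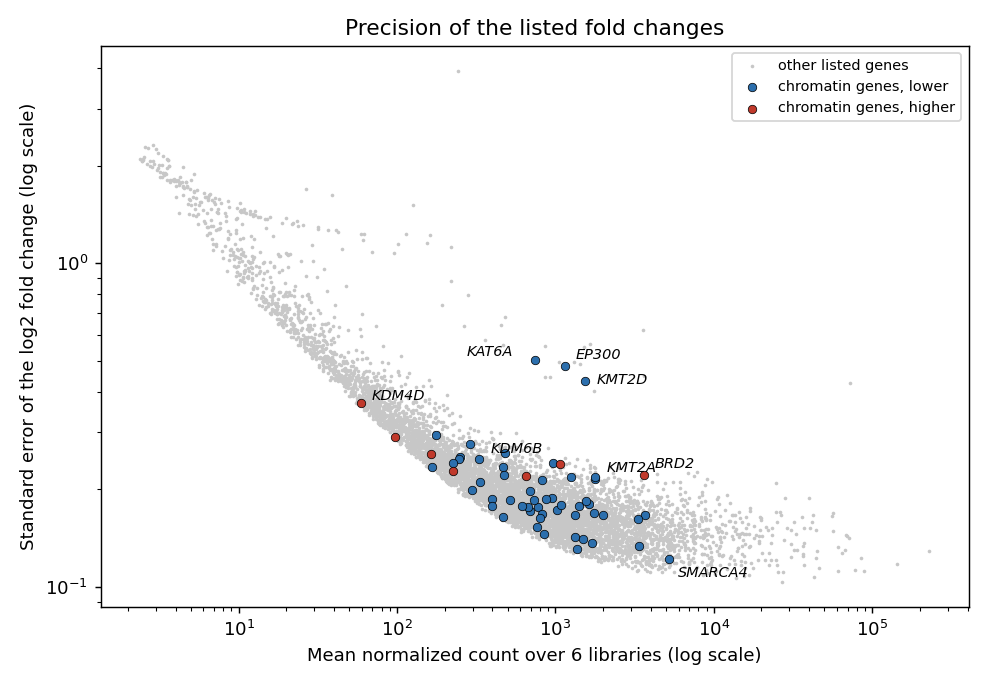
Standard error of the log2 fold change (y axis, log scale) against the mean normalized count over 6 libraries (x axis, log scale) by the authors' deposited table; grey points are other listed genes, blue and red points chromatin genes lower and higher in shikonin. KAT6A (0.50), EP300 (0.48) and KMT2D (0.43) sit above the band of genes of like level.

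Overlapping annotation touches other members too. Exons of 32 members overlap exons of some other annotated gene, and exons of 9 members overlap those of another listed gene. BRD7 shares 3593 nt with ADCY7 on the opposite strand (log2 fold change of ADCY7 -0.82), and SMARCC2 shares 514 nt with MYL6 (1.77), both fold changes as in the authors' deposited table. CHD2 shares 1727 nt on the same strand with AC013394.1, whose log2 fold change was 1.31 in the authors' deposited table, so a strand-aware count would not separate this pair. CHD4, KMT2A and KDM4A likewise share 5964, 5599 and 2077 nt on the same strand with AC006064.6, AP001267.5 and AL451062.3, which were not listed. The sources used here do not say whether the counting kept strand, so the values of all these members are uncertain.

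Partner genes outside the symbol rule were also more often lower than higher. Of 130 such genes in 9 lists, 74 were in the authors' deposited table, 58 lower and 16 higher (background 24.7% and 25.5% of genes tested), with a median log2 fold change of -0.98. Of all listed genes, 49.2% were lower and 50.8% higher. The lower partners had a median mature transcript of 6082 nt and the higher ones 1766 nt. NSD1, an H3K36 dimethyltransferase, was the lowest of them at 7.29-fold (5.68 to 9.36), and its list had 7 lower and 2 higher, the larger rise being that of EHMT2, the H3K9 enzyme G9a, at 2.99-fold (2.14 to 4.18), in the authors' deposited table. Of 16 acetyltransferase partners 13 were lower, led by the coactivator NCOA2 at 5.64-fold (log2 fold change -2.49 ± 0.25), and 3 were higher, led by ING4 at 2.76-fold (2.03 to 3.76), in the authors' deposited table. Among ISWI, INO80 and ATRX remodellers 8 of 9 were lower. SRCAP, which deposits H2A.Z, was 5.96-fold lower (2.77 to 12.8), while the small ATPase gene RUVBL2 was 2.31-fold higher (1.91 to 2.80) by the authors' deposited table.

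Polycomb partners were 7 lower and 2 higher, with ASXL2 5.49-fold lower (3.85 to 7.84) by the authors' deposited table. For COMPASS partners the split was 4 and 1: NCOA6 was 3.32-fold lower (2.50 to 4.42), and DPY30, a small core subunit shared by the H3K4 complexes, 2.38-fold higher (1.90 to 2.98) by the authors' deposited table. The PBAF gene PBRM1 was 4.63-fold lower (3.47 to 6.17) and the BAF reader gene DPF3 3.07-fold higher (2.16 to 4.35) among SWI/SNF partners, 4 lower and 3 higher, in the authors' deposited table. Sirtuins and corepressors were 7 lower and 3 higher, from NCOR1, a scaffold for HDAC3, at 2.93-fold lower (2.24 to 3.82) to SIRT4 at 4.11-fold higher (2.42 to 6.98) by the authors' deposited table. JmjC demethylases were 4 and 1, with PHF2 2.96-fold lower (2.21 to 3.97) and JMJD6 2.89-fold higher (2.41 to 3.47) by the authors' deposited table. All 4 listed DNA methylation genes were lower, TET2, a 5-methylcytosine oxidase, by 2.68-fold (1.97 to 3.66) by the authors' deposited table.

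**Figure D4:**
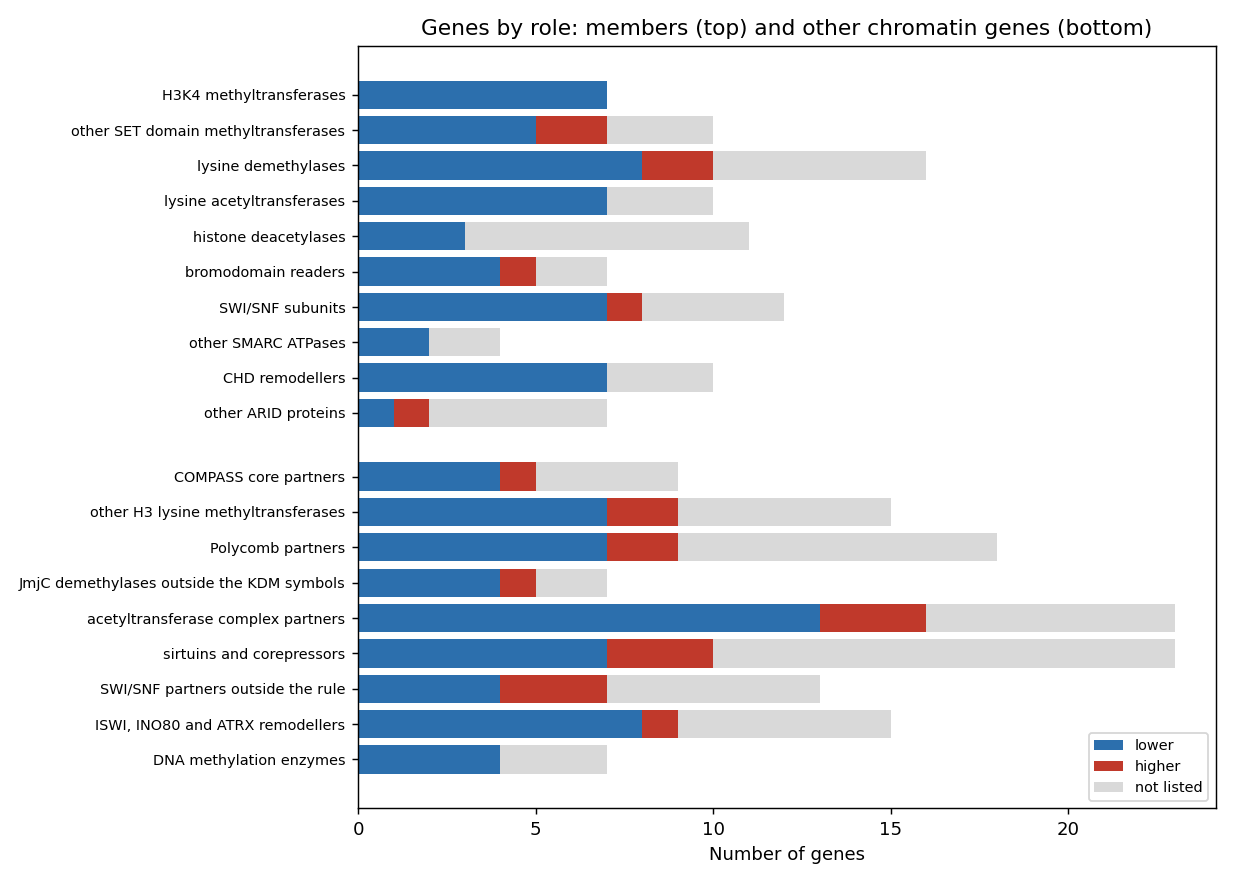
Number of genes (x axis) lower (blue), higher (red) or not listed (grey) by the authors' deposited table, for the 10 role lists of members (top) and 9 lists of other chromatin genes (bottom). All 7 H3K4 methyltransferases are lower, 8 of 11 histone deacetylases are not listed, and lower genes outnumber higher ones in 9 of the 10 member lists and in all 9 others.

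Markers of the line and of other cells were checked in the same table. VIM, the mesenchymal filament gene, had a mean of 64429 normalized counts and was 1.74-fold higher in the authors' deposited table. Of 8 mesenchymal markers 5 were listed, with VIM, CAV1 and SPARC higher and FN1 and ZEB1 lower. Of the receptor genes whose absence defines the cancer type, ESR1 and PGR were not listed, and ERBB2 was listed with a mean of 1632 and 1.99-fold lower (1.67 to 2.38) by the authors' deposited table. All 6 listed luminal markers of 8 were higher, as were 2 listed immune markers of 5, CD14 and CD68, and 1 fibroblast marker of 4, PDGFRB. Levels differed widely, and several of these rises were at low levels. Mean normalized counts were 10.6 for ESRP1, 35.4 for FOXA1, 127 for EPCAM, 21.1 for SPARC and 99.9 for PDGFRB. Those of KRT8, KRT18, KRT19, CD14 and CD68 were 15984, 8941, 16020, 1106 and 3506. The part of these markers in the values of the chromatin genes was not tested.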

How the data were processed

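HISAT2 2.0.5, fastp, DESeq2 and the build hg38 are named in the submitters' processing notes. For the read counter, annotation and strand setting, the sources used here give nothing. Library kits and lysis are as in the labels' protocols. Per the file headers, the authors deposited a mean normalized count (a signal averaged over all libraries after size factors), a log2 fold change with its standard error, a Wald score, and a p-value with its Benjamini-Hochberg adjusted value. Adjusted p was under 0.05 and the fold over 1.5 throughout, and the sign matched the authors' mark in all 7150.

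From these, 95% normal intervals from the standard errors and implied group means, assuming equal weight of 3 and 3 libraries, were computed with Python 3.11.15 and pandas 2.3.3. Genes tested, 14255, were counted back from p, adjusted p and rank. Lengths and positions came from the GENCODE 29 principal transcript (7142 genes matched by identifier). Scripts were tested on simulated data. No test across samples or gene lists was run. Members, roles and lists were chosen with earlier results of these data known. 1 gene matching the rule is left out, and 2 genes that are counted are not reported here by name or value.

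Named genes were, per role list, the members on the smaller side when 3 or fewer, the 3 largest folds and the smallest on the other side, plus the 5 highest and 5 lowest of all 59, EP300 and CREBBP, and the largest fold in each direction per partner list. SETD1B, KMT2B, SETD1A, KAT2A, KAT2B, SMARCA4, SMARCA2, SMARCC1, CHD4, KMT5B, KDM5A, KDM2B, KDM3B, KDM4A, KAT6B, CHD8, CHD2, ADCY7, MYL6 and AC013394.1 were named after their values were seen. AC006064.6, AP001267.5 and AL451062.3 were named for the size of their overlaps.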

Additional observations from a re-analysis of the deposited data

How the results depend on the processing

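The count of lower chromatin genes ranged from 35 to 52 over the alternatives run (at least 2-fold, adjusted p below 0.001, a mean normalized count of at least 100, an interval wholly beyond 1.5-fold, equal implied totals, protein-coding genes only, and without BRD3OS, the last chosen after seeing the data). The 7 higher genes became 4 at 2-fold or more, 3 by interval and 4 with equal implied totals. The 16 higher partner genes became 10 under each of those 3 settings, and the 58 lower ones 37 at 2-fold or more; for partner genes all settings but equal totals were added after seeing the data. Lower genes outnumbered higher ones in 9 of 10 role lists under every threshold and scaling run. Members longer than the median listed gene numbered 51, or 50 when each gene is taken by its longest coding sequence. With equal totals 56 of 59 members stayed past 1.5-fold. That shift is downward and smaller than the 1.5-fold bound, so no member could change sign and no lower gene could drop out. The protein-coding setting could remove none, as all 59 members are protein-coding. Only listed genes can be followed, so genes that would enter under another scaling are missed. No paired analysis was possible because the table holds no per-sample values. For that reason no library could be left out, and no comparison of replicates for duplicates was made. Where counts moved, the cause was not tested beyond the stricter threshold itself. The depth of each library is unknown.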

Other observations

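Close partners stood on opposite sides in the authors' deposited table, all named after their values were seen. EHMT1 and EHMT2 encode partners in one H3K9 methyltransferase complex: EHMT1 was 1.69-fold lower (1.39 to 2.04) and EHMT2 2.99-fold higher (2.14 to 4.18) by the authors' deposited table. Among subunits of the TIP60 and SRCAP complexes, the large-subunit genes TRRAP, EP400 and SRCAP were 4.94-fold, 4.67-fold and 5.96-fold lower in the authors' deposited table. RUVBL2 was 2.31-fold higher there. The mature transcripts of TRRAP and EP400 have 12590 and 12836 nt and that of RUVBL2 has 2009 nt. SRCAP had a standard error of 0.56, larger than those of KAT6A, EP300 and KMT2D. The differences between these genes were not tested.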
